A study of Homo sapiens with 12 samples.

Results

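AGS cells treated with SAHA were set against HGC-27 cells treated with SAHA, to see which microRNA differences between these established human gastric cancer lines stood while a histone deacetylase inhibitor was present. AGS was derived from a gastric adenocarcinoma and HGC-27 from a lymph node metastasis of an undifferentiated gastric carcinoma. The groups were AGS SAHA and HGC-27 SAHA, both given 5 µM SAHA for 24 h, and 3 libraries of each were taken by the line and treatment in their labels. The comparison was thus between 6 of the 12 libraries of the study. All 12 were fitted together, so the DMSO libraries also entered the filter, the scaling and the spread behind each p-value. AGS DMSO and HGC-27 DMSO, 3 libraries each with the solvent for the same 24 h, served to show whether a difference was also there without the inhibitor. All 4 groups were grown alike, in RPMI 1640 with fetal bovine serum, and the labels name no transgene or edited allele. Total RNA was extracted and its small RNAs were sequenced. The replicates are numbered, but whether they were separate cultures is not given, so each p-value below measures only the spread between these libraries, which may be technical.

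MicroRNAs are short RNAs cut from hairpin precursors, by Drosha in the nucleus and by Dicer in the cytoplasm, and they guide Argonaute proteins to messenger RNAs, which are then repressed. Target choice rests mainly on the seed, the bases near the 5′ end, so that microRNAs from different genes that share a seed can repress many of the same messengers. Hairpins that lie close together are often transcribed as 1 precursor, and many sit in introns of protein-coding genes. SAHA, also called vorinostat, blocks histone deacetylases and so raises histone acetylation, which alters transcription of many genes.

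Several of the differences below separated microRNAs that have the same seed but come from different chromosomes. The mature sequences of those families are shown here from RefSeq (GRCh38.p14), with the seed, bases 2 to 8, in capitals.
miR-27b-3p: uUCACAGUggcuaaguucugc
miR-27a-3p: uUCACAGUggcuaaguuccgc
miR-100-5p: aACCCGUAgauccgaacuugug
miR-99a-5p: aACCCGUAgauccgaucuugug
miR-148a-3p: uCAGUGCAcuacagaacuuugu
miR-148b-3p: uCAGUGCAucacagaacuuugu
miR-152-3p: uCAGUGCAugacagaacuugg
miR-181a-5p: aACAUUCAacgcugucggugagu
miR-181c-5p: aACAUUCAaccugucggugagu
miR-181d-5p: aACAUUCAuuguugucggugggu
miR-34a-5p: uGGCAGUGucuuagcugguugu
miR-449a: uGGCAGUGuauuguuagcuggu
miR-449c-5p: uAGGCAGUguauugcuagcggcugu
miR-378a-3p: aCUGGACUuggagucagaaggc
miR-378c: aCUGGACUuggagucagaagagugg
miR-378i: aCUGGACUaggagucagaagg
With positions counted from 1 at the 5′ end and the first-named microRNA's base written first, miR-27a-3p and miR-27b-3p differ by C19U, and miR-99a-5p and miR-100-5p by U16A. For miR-148a-3p and miR-148b-3p the differences are C9U and U10C, for miR-148a-3p and miR-152-3p they are C9U, U10G and U20G, and for miR-378a-3p and miR-378i the difference is U9A. All of these bases lie outside the seed. miR-34a-5p and miR-449a share their seed, while bases 2 to 8 of miR-449c-5p are different ones. Such close relatives can share reads, and how the authors divided shared reads is not given, so the values of single members of these families are uncertain to that extent.

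The microRNAs with the largest differences or an unlike response to SAHA are shown next, from the same source.
miR-509-3-5p: uACUGCAGacguggcaaucaug
miR-514a-3p: aUUGACACuucugugaguaga
miR-516a-5p: uUCUCGAGgaaagaagcacuuuc
miR-135b-5p: uAUGGCUUuucauuccuauguga
miR-296-3p: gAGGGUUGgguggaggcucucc
miR-328-3p: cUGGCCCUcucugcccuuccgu
miR-7-5p: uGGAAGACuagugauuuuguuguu
No seed is shared among these 7. miR-509-3-5p (chrX:147259696-147259717) and miR-514a-3p (chrX:147279266-147279286 and chrX:147281957-147281977 and chrX:147284655-147284675) come from the minus strand of Xq27, outside any annotated host gene. miR-516a-5p lies on the plus strand of chromosome 19 (chr19:53756756-53756778 and chr19:53761148-53761170) in a cluster found in primates. miR-135b-5p lies on the minus strand in an intron of LEMD1 (chr1:205448361-205448383). miR-7-5p is made from several hairpins, of which the hairpin with most counts here lies in HNRNPK on the minus strand of chromosome 9.

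The AGS SAHA libraries held 2756985, 3176607 and 3487282 counts and the HGC-27 SAHA libraries held 4014267, 3331650 and 5357329. Of 1906 annotated microRNA names, 608 had enough counts to be tested, and each library listed between 735 and 940. HGC-27 SAHA 2 stood apart from its replicates. On the first principal component, with 39.5% of the variance, which parted SAHA from DMSO libraries, it lay at -19.6, while HGC-27 SAHA 1 and 3 lay at -0.948 and -5.26. On the second, which parted the lines, it lay with the HGC-27 libraries. Across the 608 microRNAs its Spearman correlation was 0.910 with HGC-27 SAHA 1 and 0.933 with HGC-27 SAHA 3, whose own was 0.983. The AGS SAHA libraries correlated at 0.957 to 0.983. Where a call of a microRNA named below was lost without HGC-27 SAHA 2, this is stated beside it. Levels are counts per 1000000 (CPM) scaled by the TMM method, fold changes are log2 values of AGS SAHA over HGC-27 SAHA with their standard error, and adjusted p-values are from edgeR's quasi-likelihood test with Benjamini-Hochberg adjustment over the 608 microRNAs. Each standard error was derived as the absolute log2 fold change divided by the square root of that test's F statistic. Among the DMSO libraries AGS DMSO 2 and HGC-27 DMSO 1 were unlike their replicates. Summed fibroblast and smooth muscle microRNAs were at 1113, 3566 and 603 CPM in AGS DMSO and 1239.6, 187 and 179 CPM in HGC-27 DMSO, and the epithelial miR-200 family was at 232, 754 and 304 CPM in AGS DMSO and 647, 331 and 342 CPM in HGC-27 DMSO.

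The lines differed in a large share of their microRNAs while SAHA was present. Of 608 microRNAs, 260 were called at an adjusted p under 0.05 (42.8%), 139 of them higher in AGS (22.9%) and 121 lower (19.9%). The change was 2-fold or more for 147 of the calls, 87 higher and 60 lower, and 10-fold or more for 12 higher and 6 lower. For 329 microRNAs (54.1%) the 3 libraries of AGS SAHA did not overlap those of HGC-27 SAHA, and 257 of these were among the calls. Without HGC-27 SAHA 2, 253 of 644 microRNAs were called (39.3%), and 38 of the 260 calls were lost. Leaving out any other single SAHA library left fewer calls, from 230 (without AGS SAHA 1) to 245 (without AGS SAHA 2). Losing calls was therefore not particular to HGC-27 SAHA 2. With the 6 SAHA libraries fitted alone, 238 of 557 microRNAs were called. The median log2 fold change of all 608 was 0.07, with 0.15 under plain library totals and -0.10 when predicted entries were scaled together with the annotated ones, which gave 110 higher and 152 lower calls. Which direction had more calls depended on the fit. There were 153 higher and 111 lower calls under plain totals, 128 and 134 with RLE factors, and 126 and 140 with DESeq2.

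Most of the differences were also present without the inhibitor. With DMSO, 271 of 608 microRNAs were called between the lines (44.6%), 149 higher in AGS and 122 lower. The same direction was called with SAHA and with DMSO for 189 microRNAs, 95 higher in AGS and 94 lower, which is 72.7% of the SAHA calls and 69.7% of the DMSO calls. Of these, 111 differed by 2-fold or more under each treatment. SAHA against DMSO was itself called for 161 of 608 in AGS (26.5%) and 248 in HGC-27 (40.8%). Another 69 microRNAs were called between the lines with SAHA and not with DMSO, 80 with DMSO and not with SAHA, and 2 in opposite directions. A call under 1 treatment alone does not show that the treatments differ, and 51 of the 69 and 67 of the 80 had the same sign under both treatments. The median absolute log2 fold change was 0.66 with SAHA and 0.69 with DMSO, and across the 608 microRNAs the fold changes under both treatments had a Pearson correlation of 0.70 (a description across microRNAs, which share the libraries' scaling).

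**Figure D1:**
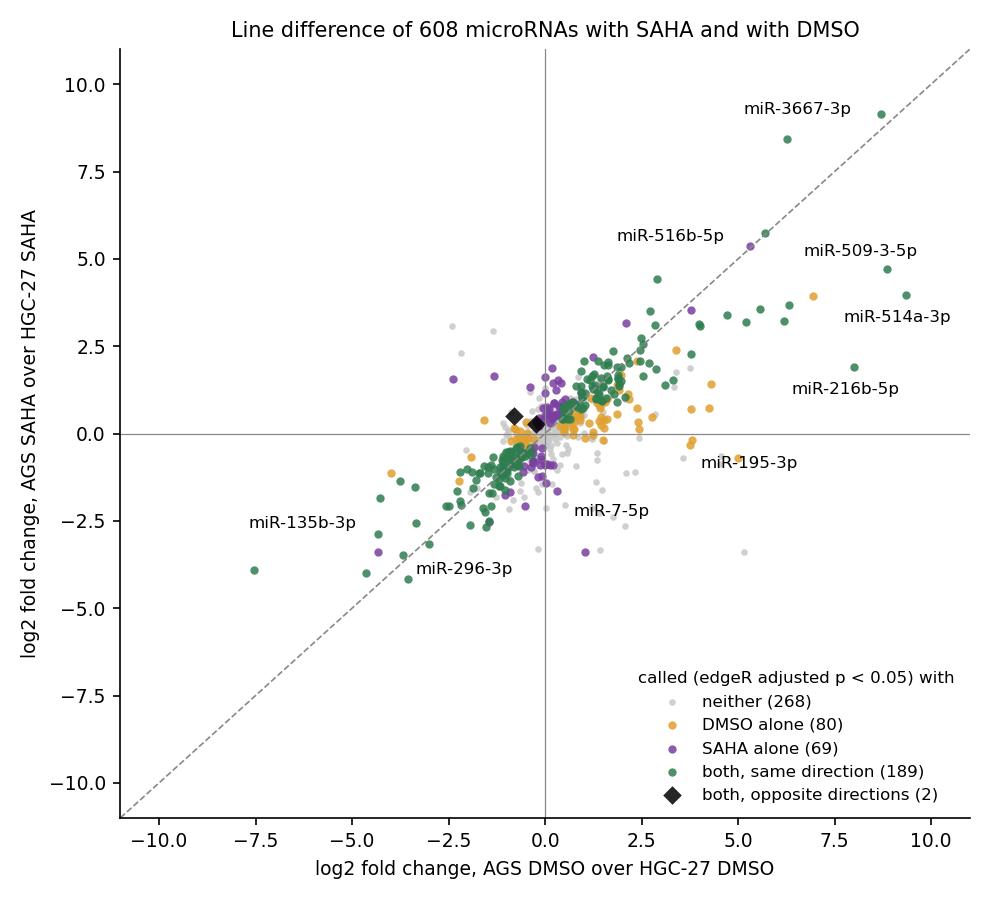
Each point is 1 of 608 microRNAs, with the log2 fold change of AGS SAHA over HGC-27 SAHA on the vertical axis and of AGS DMSO over HGC-27 DMSO on the horizontal axis. Colours mark where it was called, the dashed line marks equal values, and the 189 called alike under both treatments lie to the upper right and lower left of the origin.

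Among microRNAs at 50 CPM or more in either line, the largest differences upward in AGS were in those of the X chromosome's Xq27 clusters, known for expression in testis and epididymis. miR-509-3-5p had 52.2, 37.3 and 72.6 CPM in AGS SAHA libraries, against 2.19, 0.717 and 2.94 CPM in HGC-27 SAHA libraries (log2 fold change 4.72 ± 0.53, adjusted p = 1.2e-04). miR-514a-3p had 49.4, 37.6 and 85.9 CPM in AGS SAHA, against 5.31, 2.15 and 3.40 CPM in HGC-27 SAHA (3.97 ± 0.54, adjusted p = 3.4e-04). In neither did the lines overlap, and both were listed at 0 in the 3 HGC-27 DMSO libraries. Of the 23 microRNAs listed for these clusters 7 were tested, and 5 of those were called higher in AGS (22.9% of all 608 were). The median log2 fold change of the 7 was 3.67, beside 0.07 over all 608. Members of this and of the next cluster that passed the filter on low counts through AGS alone had to differ, so these counts and medians are descriptions. Their summed level was 165, 131 and 234 CPM in AGS SAHA and 34.05, 19.7 and 31.0 CPM in HGC-27 SAHA. It was 40.1, 68.9 and 28.1 CPM in AGS DMSO and 0, 0 and 0.386 CPM in HGC-27 DMSO, so the sums were higher with SAHA in every HGC-27 library and the lines were apart under both treatments. miR-508-3p had 102 counts in all in AGS SAHA and 2 in HGC-27 SAHA, a ratio of 61.2 after scaling (exact 95% interval 16.5 to 512, which covers counting error only).

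A group of the chromosome 19 cluster known for placental expression was also higher in AGS. Of 59 microRNAs listed for it 6 were tested, and all 6 of those were called higher (22.9% of all 608 were), with a median of 1.83 beside 0.07 over all 608. The most abundant, miR-516a-5p, had 373, 316 and 315 CPM in AGS SAHA and 78.4, 74.3 and 83.8 CPM in HGC-27 SAHA, with no overlap (log2 fold change 2.09 ± 0.14, adjusted p = 1.3e-06). Next came miR-522-3p at 123 ± 15.7 CPM in AGS SAHA and 41.5 ± 1.53 CPM in HGC-27 SAHA (SD, n = 3 each). miR-1283 and miR-519a-5p had log2 fold changes of 1.53 and 1.60. miR-516b-5p varied widely among the AGS SAHA libraries (37.7, 6.43 and 72.3 CPM, against 0.625, 0 and 1.81 CPM in HGC-27 SAHA). The cluster's summed level was 652, 547 and 714 CPM in AGS SAHA and 172, 153 and 176 CPM in HGC-27 SAHA.

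miR-10b-5p, known as a promoter of invasion in breast cancer, lies in an intron of HOXD3 (chr2:176150303-176150412, GENCODE 29). It had 1302, 1563 and 934 CPM in AGS SAHA and 126, 143 and 169 CPM in HGC-27 SAHA, and the lines did not overlap (log2 fold change 3.12 ± 0.29, adjusted p = 8.7e-06). The difference with DMSO was 2.84. miR-3158-3p, from an intron of DPCD, had 65.8, 54.3 and 114 CPM in AGS SAHA and 19.1, 16.9 and 19.9 CPM in HGC-27 SAHA (2.07 ± 0.29, adjusted p = 1.9e-04).

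The miR-378 family was higher in AGS as a whole. miR-378a, which lies in an intron of PPARGC1B and is known from work on energy metabolism in mice, gave most of its counts. miR-378a-3p had 6444, 5862 and 7815 CPM in AGS SAHA and 1887, 1723 and 1802 CPM in HGC-27 SAHA (log2 fold change 1.89 ± 0.11, adjusted p = 6.8e-07). For miR-378c the values were 718, 642 and 739.8 CPM in AGS SAHA and 191, 152 and 168 CPM in HGC-27 SAHA (2.04 ± 0.12). miR-378d and miR-378i had log2 fold changes of 1.97 and 1.90. None of these 4 overlapped between the lines, and their differences with DMSO were of similar size (1.96, 1.64, 1.64 and 1.88). The 6 tested microRNAs with the seed CUGGACU (as shown above for miR-378a-3p) were all called higher. Because their sequences are nearly alike, they may count some of the same reads and are not 6 separate observations.

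**Figure D2:**
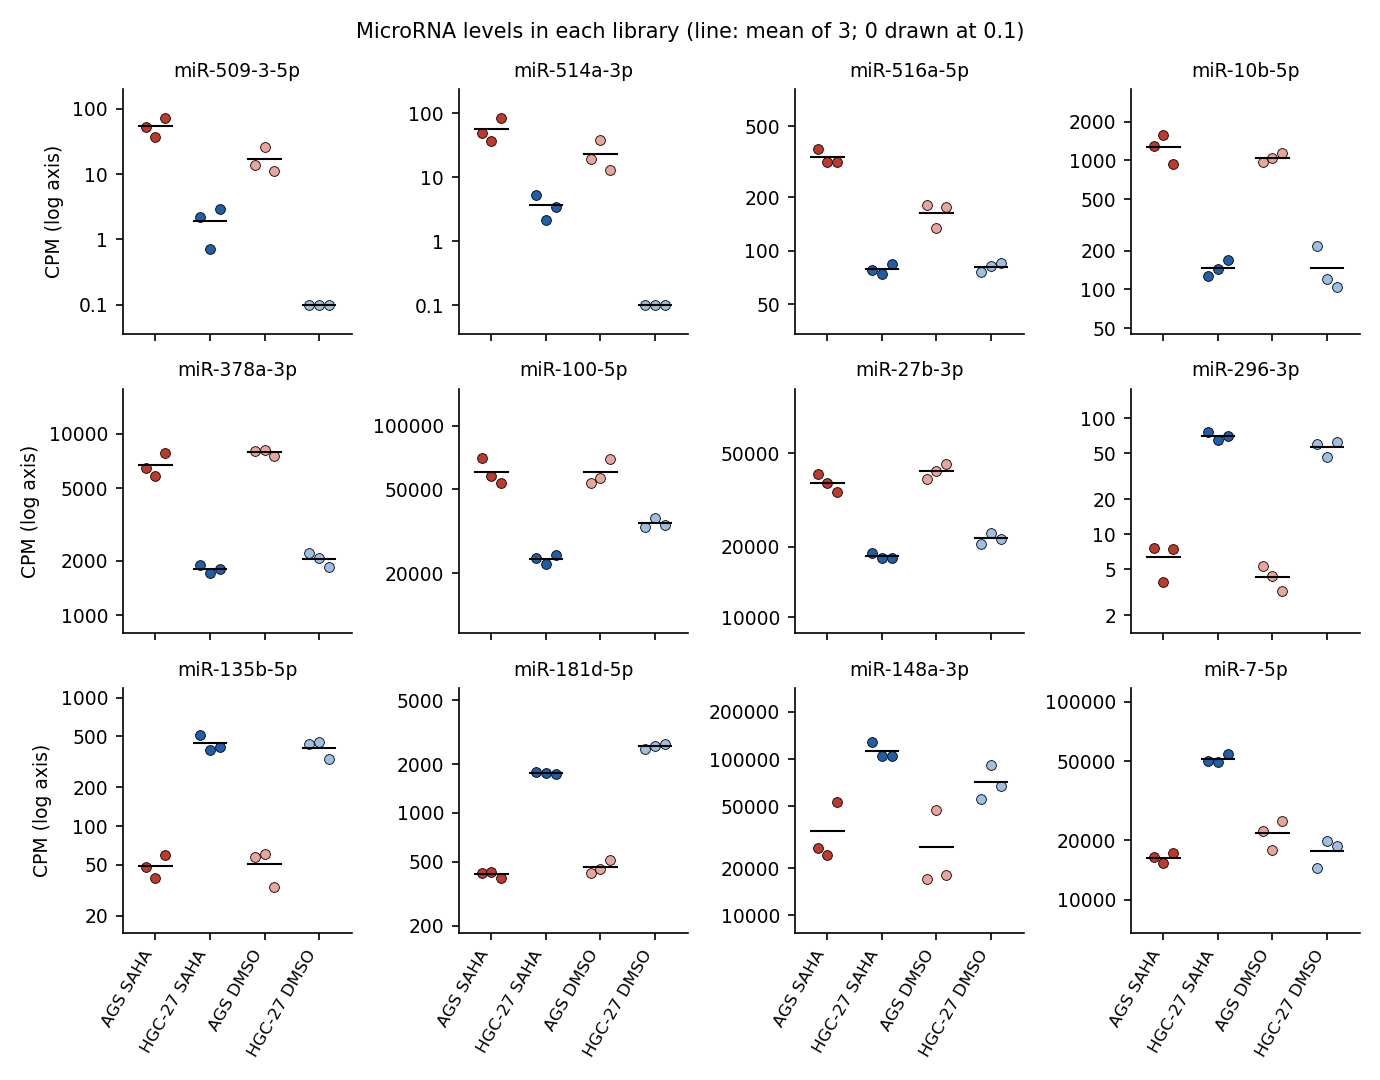
TMM-scaled CPM in each library on a log axis for 12 microRNAs, with AGS SAHA, HGC-27 SAHA, AGS DMSO and HGC-27 DMSO from left to right and a line at the mean of 3. The first 7 panels are higher in AGS SAHA than in HGC-27 SAHA and the last 5 are lower. miR-7-5p differs from the others in that its AGS DMSO and HGC-27 DMSO libraries lie together.

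Downward in AGS, by the same minimum, the largest differences were in miR-296 and miR-135b. miR-296-3p, whose hairpin overlaps an exon of a noncoding RNA on chromosome 20 (chr20:58817615-58817694), had 7.63, 3.86 and 7.49 CPM in AGS SAHA and 76.8, 65.3 and 69.8 CPM in HGC-27 SAHA (log2 fold change -3.48 ± 0.27, adjusted p = 4.4e-06). miR-135b-5p, known to repress APC, an inhibitor of Wnt signalling, had 48.2, 39.2 and 59.6 CPM in AGS SAHA and 515, 390.3 and 415 CPM in HGC-27 SAHA (-3.17 ± 0.25, adjusted p = 4.4e-06). Its other arm, miR-135b-3p, had 8.03, 7.71 and 6.18 CPM in AGS SAHA and 62.2, 49.1 and 51.2 CPM in HGC-27 SAHA (-2.89 ± 0.16). In these 3 the lines were far apart in every library and the difference was called with DMSO as well.

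Further large differences downward in AGS were in miR-328-3p, miR-191-3p and microRNAs of the miR-181 and miR-148 families. miR-328-3p had 61.4, 95.1 and 36.8 CPM in AGS SAHA and 291, 629 and 325 CPM in HGC-27 SAHA, the highest being HGC-27 SAHA 2 (log2 fold change -2.69 ± 0.39, and -2.35 without that library). miR-191-3p, from an intron of DALRD3, had 10.4, 13.8 and 11.7 CPM in AGS SAHA and 52.5, 52.4 and 52.8 CPM in HGC-27 SAHA (-2.13 ± 0.17, adjusted p = 4.4e-06). The more abundant arm miR-191-5p and miR-425-3p of the same intron were lower too (-1.07 ± 0.09 and -1.29 ± 0.09). miR-218-5p, from an intron of SLIT2, rested on 1 library: it had 105, 166 and 109 CPM in AGS SAHA and 203, 1213 and 182 CPM in HGC-27 SAHA. Its log2 fold change was -2.07 ± 0.63 (adjusted p = 0.0211), and -0.70 without HGC-27 SAHA 2 (adjusted p = 0.0596). The call was also lost with DESeq2, with the 6 SAHA libraries alone, and without AGS SAHA 1 or AGS SAHA 3.

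Among the 10 microRNAs with the highest mean level in the 6 libraries, 7 were called and 3 were not. miR-21-5p, widely known as an oncogenic microRNA that represses PDCD4, had 334701, 279828 and 348204 CPM in AGS SAHA and 254951, 225523 and 236352 CPM in HGC-27 SAHA. It was called higher (log2 fold change 0.43 ± 0.10, adjusted p = 0.00679), and without HGC-27 SAHA 2 it was 0.29 (adjusted p = 0.0838). Leaving out AGS SAHA 1, AGS SAHA 3 or HGC-27 SAHA 3, or fitting the predicted entries together, ended that call too. miR-30d-5p was lower in AGS, at 11655 ± 282 CPM against 20201 ± 315 CPM in HGC-27 (SD, n = 3 each). miR-30a-5p, let-7i-5p and let-7f-5p had log2 fold changes of -0.17, 0.23 and 0.11 and were not called. The other abundant calls were miR-148a-3p, miR-100-5p, miR-7-5p, miR-27b-3p and let-7g-5p, which are described with their families.

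Members of the miR-23, miR-27 and miR-24 clusters went in opposite directions by chromosome. The cluster on chromosome 9, within C9orf3, was higher in AGS, and the cluster on chromosome 19 was lower, although their mature sequences carry the same seeds. miR-27b-3p (chromosome 9), known to repress the drug-metabolising enzyme CYP1B1, had 40883, 37422 and 34096 CPM in AGS SAHA and 18743, 17852 and 17887 CPM in HGC-27 SAHA (log2 fold change 1.04 ± 0.09, adjusted p = 5.2e-06). miR-27a-3p (chromosome 19) had 9126, 8818 and 9667 CPM in AGS SAHA and 21131, 15835 and 16608 CPM in HGC-27 SAHA (-0.96 ± 0.11, adjusted p = 4.1e-05). The lines did not overlap in either. miR-23b-3p (chromosome 9) was higher, at 2945 ± 276 CPM in AGS SAHA and 1648 ± 56.6 CPM in HGC-27 SAHA, and miR-23a-3p (chromosome 19) was lower, at 5933 ± 673 CPM in AGS SAHA and 8517 ± 116 CPM in HGC-27 SAHA (SD, n = 3 each). Of the passenger arms, miR-27b-5p and miR-24-1-5p of chromosome 9 were higher (1.67 and 1.37), miR-27a-5p and miR-23a-5p of chromosome 19 were lower (-0.89 and -2.25), and miR-24-2-5p was not called (-0.82, adjusted p = 0.0534, and 0.0287 without HGC-27 SAHA 2). The call of miR-24-1-5p was lost without AGS SAHA 3, HGC-27 SAHA 1 or HGC-27 SAHA 3, and that of miR-23a-3p under plain library totals. miR-24-3p, which both clusters make, was lower (-0.62 ± 0.12). Over the list, 4 of 11 were called higher and 5 lower (22.9% and 19.9% of all 608 were). With DMSO, miR-27b-3p, miR-27a-3p, miR-23b-3p and miR-23a-3p kept their directions.

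**Figure D3:**
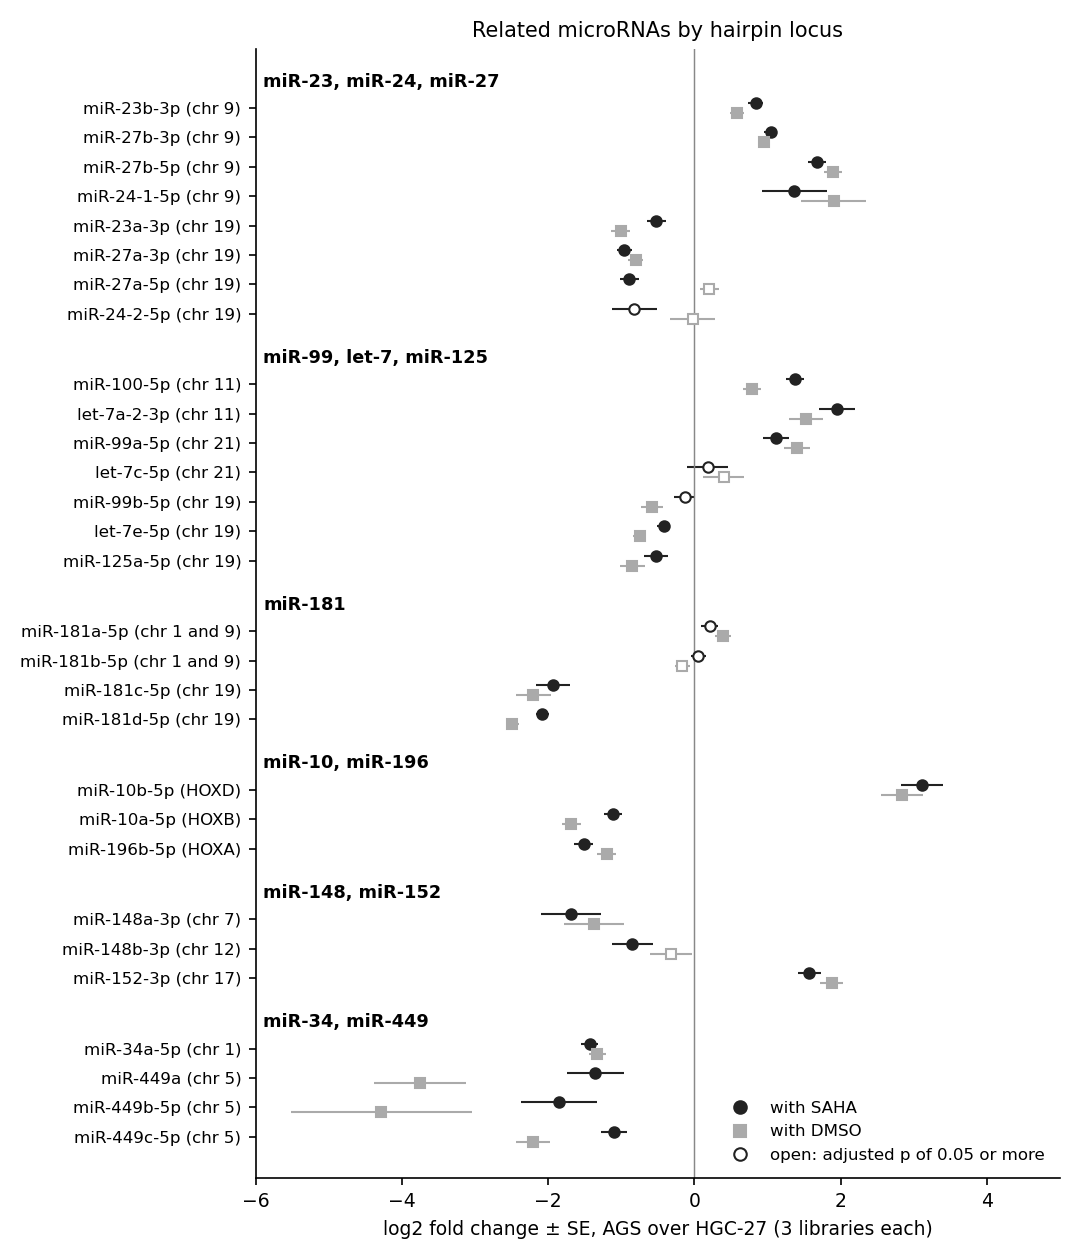
Log2 fold change of AGS over HGC-27 with its standard error for related microRNAs grouped by the place of their hairpins, with SAHA as black circles and with DMSO as grey squares, open where the adjusted p was 0.05 or more. In the upper block the chromosome 9 members lie right of 0 and the called chromosome 19 members with SAHA lie left of it.

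In the clusters of miR-99, miR-100, let-7 and miR-125, most members on chromosomes 11 and 21 were higher in AGS, while of the 6 tested on chromosome 19, 2 were lower and 4 were not called. The difference between the places was not tested. miR-100 and its relatives are known to repress the kinase MTOR. miR-100-5p of chromosome 11 (chr11:122152275-122152296) had 70439, 57976 and 53389 CPM in AGS SAHA and 23681, 22066 and 24409 CPM in HGC-27 SAHA, with no overlap (log2 fold change 1.37 ± 0.12, adjusted p = 7.0e-06). miR-99a-5p of chromosome 21 (chr21:16539101-16539122) had 18957, 16596 and 25013 CPM in AGS SAHA and 9425, 10368 and 8078 CPM in HGC-27 SAHA (1.12 ± 0.18). miR-99b-5p of chromosome 19, in an intron of SPACA6, had 5371, 4806 and 3800.0 CPM in AGS SAHA and 4675, 5184 and 5475 CPM in HGC-27 SAHA, and these overlapped (-0.13 ± 0.15, adjusted p = 0.497). Its neighbours let-7e-5p and miR-125a-5p were lower in AGS (-0.42 ± 0.09 and -0.53 ± 0.17). The call of miR-125a-5p was lost without AGS SAHA 3 or HGC-27 SAHA 1 and under plain library totals. Its other arm miR-125a-3p was at 0.28 and not called, and let-7c-5p of chromosome 21 was at 0.18 and not called (adjusted p = 0.0113 without HGC-27 SAHA 2). miR-125b-5p, made from chromosomes 11 and 21, was higher, with 2135, 2057 and 1562 CPM in AGS SAHA and 978, 1327 and 911 CPM in HGC-27 SAHA (0.84 ± 0.17). The passenger arms let-7a-2-3p, miR-100-3p, miR-99a-3p and let-7c-3p from chromosomes 11 and 21 were all higher (1.95, 2.17, 1.32 and 1.78). Of the 11 tested members of miR-99, miR-100 and miR-125, 7 were called higher and 1 lower (22.9% and 19.9% of all 608 were), with a median of 0.87 beside 0.07 over all 608, and 7 had the same call with DMSO.

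let-7, which represses RAS and HMGA2 messengers and marks differentiated cells, showed no such shift as a family. Of its 20 tested members 5 were called higher and 3 lower in AGS (22.9% and 19.9% of all 608 were), and the median was 0.08. let-7g-5p, from an intron of WDR82, had 17744, 15988 and 17841 CPM in AGS SAHA and 35743, 35727 and 37314 CPM in HGC-27 SAHA (log2 fold change -1.08 ± 0.09, adjusted p = 5.2e-06). let-7i-5p had 39346, 36660.5 and 40286 CPM in AGS SAHA and 32075, 32999 and 34126 CPM in HGC-27 SAHA and was not called (0.23 ± 0.10, adjusted p = 0.081). The lines did not overlap in either of these, and they lay in opposite order. let-7a-5p was not called (-0.13).

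In the miR-181 family, known for roles in lymphocyte development, the difference was in the chromosome 19 hairpins in an intron of NANOS3. miR-181d-5p (chr19:13874910-13874932) had 424, 432 and 398 CPM in AGS SAHA and 1781, 1779.9 and 1736 CPM in HGC-27 SAHA, and its adjusted p was the lowest of the 608 (log2 fold change -2.08 ± 0.09, adjusted p = 7.5e-08). miR-181c-5p (chr19:13874725-13874746) had 23.3, 18.3 and 24.4 CPM in AGS SAHA and 81.5, 93.3 and 78.8 CPM in HGC-27 SAHA (-1.94 ± 0.23), and miR-181c-3p was lower as well (-1.57 ± 0.11). miR-181a-5p, made from chromosomes 1 and 9, had 1534, 1652 and 1601 CPM in AGS SAHA and 1297, 1542 and 1304 CPM in HGC-27 SAHA, and was not called (0.21 ± 0.11, adjusted p = 0.156). miR-181b-5p was not called either (0.05 ± 0.10), and miR-181a-2-3p was higher (0.84 ± 0.13).

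MicroRNAs of the HOX gene clusters, which lie among the genes for body-axis transcription factors, were split by cluster. miR-10b-5p and miR-10b-3p of HOXD were higher in AGS (3.12 and 3.57). miR-10a-5p, in an intron of HOXB3, had 7321, 6633 and 6384 CPM in AGS SAHA and 15615, 13776 and 14675 CPM in HGC-27 SAHA, with no overlap (log2 fold change -1.12 ± 0.12, adjusted p = 3.9e-05). miR-196b-5p of HOXA9 had 228, 226 and 187 CPM in AGS SAHA and 659, 545 and 627 CPM in HGC-27 SAHA (-1.51 ± 0.13), and miR-196a-5p, known to cleave the HOXB8 messenger, was lower too (-0.64 ± 0.11). miR-615-3p was not called (-0.48, adjusted p = 0.0502, and 0.0128 without HGC-27 SAHA 2). Of 8 tested, 2 were called higher and 4 lower (22.9% and 19.9% of all 608 were), and these 6 had the same call with DMSO.

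miR-148a, known to repress the DNA methyltransferase DNMT1, was lower in AGS while its relative miR-152 was higher. miR-148a-3p (chr7:25949922-25949943) had 26836, 24411 and 53202 CPM in AGS SAHA and 127887, 104353 and 104220.0 CPM in HGC-27 SAHA (log2 fold change -1.69 ± 0.41, adjusted p = 0.00691). AGS SAHA 3 was the highest of its line and still below each HGC-27 SAHA library. Its other arm miR-148a-5p had 194, 166 and 241 CPM in AGS SAHA and 954, 698 and 822 CPM in HGC-27 SAHA (-2.04 ± 0.18). miR-148b-3p, from an intron of COPZ1, was lower (-0.85 ± 0.29, adjusted p = 0.0324). Leaving out AGS SAHA 1, AGS SAHA 2 or HGC-27 SAHA 3 ended that call. miR-152-3p, from an intron of COPZ2, had 1446, 1341 and 1371 CPM in AGS SAHA and 515, 487 and 395 CPM in HGC-27 SAHA (1.57 ± 0.16, adjusted p = 2.2e-05).

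miR-34a, which represses cell-cycle genes, and miR-449, which is known from multiciliated cells and shares targets with it, were lower in AGS. miR-34a-5p had 169.8, 189.9 and 158 CPM in AGS SAHA and 460.1, 466 and 474 CPM in HGC-27 SAHA (log2 fold change -1.43 ± 0.12, adjusted p = 5.0e-06). miR-449c-5p, from an intron of CDC20B, had 142, 126 and 154 CPM in AGS SAHA and 298, 296 and 313 CPM in HGC-27 SAHA (-1.10 ± 0.18, adjusted p = 5.0e-04). The lines did not overlap in either. With DMSO, miR-449c-5p was at 2.78, 4.33 and 1.87 CPM in AGS and 12.03, 16.6 and 14.3 CPM in HGC-27, so the level was far higher with SAHA in both lines and the order of the lines was the same. miR-449a and miR-449b-5p were also lower (-1.36 and -1.85, calls that were lost without AGS SAHA 3 for miR-449a and without HGC-27 SAHA 1 or 3 for miR-449b-5p), and miR-34c-5p was not called (-0.12). In all 4 of 6 tested members were lower (19.9% of all 608 were), with a median of -1.23 beside 0.07.

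In several smaller families the calls were lower in AGS, beside 19.9% lower calls among all 608. Of 7 tested members of miR-29, known to repress collagens and DNA methyltransferases, 5 were lower and none higher. miR-29a-3p had 2851, 3109 and 2386 CPM in AGS SAHA and 4303, 5658 and 4336 CPM in HGC-27 SAHA (log2 fold change -0.78 ± 0.12). Of the cluster of miR-183, miR-96 and miR-182, known from sensory organs, 4 of 5 were lower, with miR-182-5p at 6807, 6247 and 6511 CPM in AGS SAHA and 10839.8, 10076 and 10739 CPM in HGC-27 SAHA (-0.69 ± 0.14). miR-26a-5p and miR-26b-5p, which repress EZH2, were lower (-1.02 ± 0.13 and -1.02 ± 0.13). So were miR-212-5p, miR-212-3p and miR-132-3p of a cluster that the transcription factor CREB induces in neurons (-1.61, -1.35 and -0.65), and miR-146b-5p, a feedback inhibitor of NF-kappa-B signalling (-1.25 ± 0.18). In the miR-30 family 5 of 11 were called lower and 1, miR-30a-3p, higher. That higher call was lost without HGC-27 SAHA 2 and with RLE size factors. Of the polycistron from miR-17 to miR-92a with its paralogs, known for driving proliferation, 4 of 21 were lower and none higher, a share close to that of all 608, among them miR-92a-3p (-0.75 ± 0.12). miR-20a-5p, miR-25-3p and miR-17-5p of that group were not called (-0.39, 0.11 and -0.39), although without HGC-27 SAHA 2 miR-20a-5p and miR-17-5p were (adjusted p = 0.0152 and 0.0122).

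Further families are given by their counts of calls, beside 22.9% higher and 19.9% lower calls among all 608. Of miR-193 and miR-365, 5 of 8 were higher in AGS (3 without HGC-27 SAHA 2), among them miR-193b-5p (1.00 ± 0.21), while the abundant miR-193b-3p was not called (0.06). Of miR-130, miR-301 and miR-454, 3 of 8 were higher and 3 lower, with miR-130b-3p at 1.16 and miR-454-3p at -0.53. Of miR-15 and miR-16, which repress BCL2, and their relatives, 2 of 12 were higher, miR-15b-5p (0.58 ± 0.12) and miR-16-2-3p (0.34 ± 0.12), and 3 were lower, with miR-15a-5p at 30.5, 31.8 and 21.5 CPM in AGS SAHA and 75.3, 73.5 and 63.4 CPM in HGC-27 SAHA. The call of miR-16-2-3p was lost without HGC-27 SAHA 2 (0.22, adjusted p = 0.302) and without any other library but AGS SAHA 3. miR-452-5p was higher (0.84 ± 0.15), and its neighbour miR-224-5p was not called (-0.17 ± 0.09). Of 5 tested microRNAs of other epithelia, miR-31-5p was called, lower in AGS (-0.59 ± 0.13), and miR-203a-3p was not (-0.10). Of 6 that are made without Drosha, miR-877-3p was called, lower in AGS (-1.13 ± 0.23). Of 6 entries whose sequence resembles other small RNAs, miR-4454 and miR-7977 were higher (3.07 and 0.73), miR-7977 not without HGC-27 SAHA 2 (0.57, adjusted p = 0.0593) or AGS SAHA 2. The embryonic stem cell list had 1 tested member, miR-372-3p, which was not called (-0.19, adjusted p = 0.82).

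The directions were mostly shared within hairpins and clusters, counted only over microRNAs listed with 1 hairpin. For 138 hairpins both such arms were tested, and the arms had the same sign in 108. Both arms were called for 38 of them, in the same direction in all 38, and in 56 more 1 arm was called. miR-7-5p, made from several hairpins, did not enter these counts. It was called lower (-1.65), while miR-7-1-3p, from 1 of those hairpins, was called higher (0.41), though not without HGC-27 SAHA 2. Hairpins within 10 kb of each other on 1 strand formed 43 clusters, of which 23 had calls from at least 2 hairpins. miR-24-3p, called lower and made by clusters on chromosomes 9 and 19, was not counted in either. In 22 of the 23 all counted calls went in 1 direction. The exception was the cluster of miR-424, miR-503, miR-450 and miR-542 on the X chromosome, in which miR-424-5p and miR-503-5p were lower (-0.66 and -0.49) and miR-542-3p was higher (0.50, adjusted p = 0.0496, and 0.219 without HGC-27 SAHA 2). The call of miR-542-3p held under plain library totals and under no other alternative, and that of miR-503-5p was lost without a filter. Arms of 1 hairpin and neighbours in 1 transcript share their source, so these counts describe loci and not independent microRNAs.

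Because members with 1 seed moved in different directions, sums over a seed were compared as well. Among 57 seeds with at least 2 tested members, the summed levels did not overlap between the lines for 36. Of all 608 single microRNAs, 54.1% did not overlap. Calls in both directions were present for 7 of the seeds. For the seed of miR-27 the sums were 50009, 46239.8 and 43762 CPM in AGS SAHA and 39874, 33686 and 34495 CPM in HGC-27 SAHA, a ratio of means of 1.30, while its 2 members differed in opposite directions. For the seed of miR-23 the sums were 8875, 9843 and 7943 CPM in AGS SAHA and 9983, 10235 and 10291 CPM in HGC-27 SAHA (0.874). For the seed of miR-125 they overlapped, at 3893, 3894 and 2831 CPM in AGS SAHA and 3449, 3618 and 3153 CPM in HGC-27 SAHA. The ratio of means was 2.26 for the seed of miR-99 and miR-100, 3.75 for that of miR-378, 0.344 for that of miR-148 and miR-152, and 0.885 for that of let-7. Only members with a RefSeq sequence entered the sums. The sum for miR-30 therefore lacks miR-30d-5p and miR-30b-5p, and that for miR-320 lacks miR-320a, so these are not sums of whole families.

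**Figure D4:**
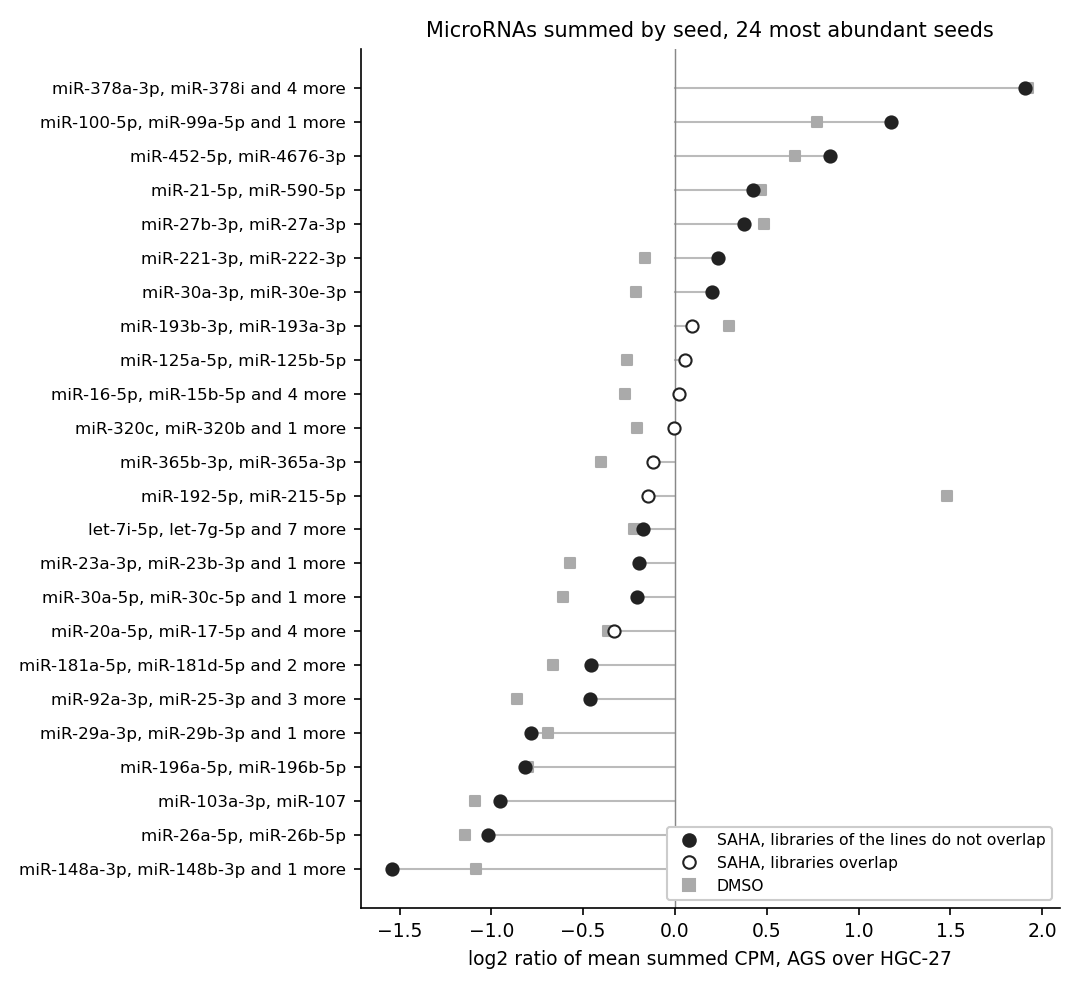
Log2 ratio of mean summed CPM, AGS over HGC-27, for the 24 most abundant seeds with at least 2 tested members, with SAHA as circles (filled where the libraries of the lines do not overlap) and with DMSO as grey squares. Only members with a RefSeq sequence are summed, which leaves out miR-30d-5p, miR-30b-5p and miR-320a. The seed of miR-378 is at the top, with an AGS over HGC-27 ratio of 3.75 with SAHA and 3.79 with DMSO, and the seed of miR-148 and miR-152 at the bottom, with 0.344 and 0.471.

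The line difference itself differed between SAHA and DMSO for 11 of 608 microRNAs by the interaction term (1.81%), with 109 at an unadjusted p under 0.05 and 37 called by DESeq2. With 1 library left out, the interaction calls numbered from 2 (without HGC-27 DMSO 3) to 20 (without AGS DMSO 3). Most of the 11 calls were thus lost without HGC-27 DMSO 3. The most abundant of the 11 was miR-7-5p, known to repress EGFR. It had 16431, 15347 and 17122 CPM in AGS SAHA and 49886, 49292 and 54563 CPM in HGC-27 SAHA (log2 fold change -1.65 ± 0.14, adjusted p = 5.8e-06). With DMSO it had 22345, 17842 and 25091 CPM in AGS and 14494, 19886 and 18653 CPM in HGC-27 (0.30 ± 0.14, adjusted p = 0.1). The lines were apart with SAHA and overlapped with DMSO, and the difference of the differences was -1.95 ± 0.20 (adjusted p = 5.8e-04). SAHA against DMSO was -0.42 ± 0.14 in AGS and 1.54 ± 0.14 in HGC-27.

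The hairpin of miR-1247 on chromosome 14, in an exon of DIO3OS, gave a further difference. miR-1247-3p had 57.4, 63.3 and 66.7 CPM in AGS SAHA and 24.4, 21.9 and 28.3 CPM in HGC-27 SAHA, and 51.2, 56.3 and 57.6 CPM in AGS DMSO and 86.1, 63.0 and 66.5 CPM in HGC-27 DMSO. It was higher in AGS with SAHA (1.33 ± 0.16) and not called with DMSO (-0.39 ± 0.15), with an interaction of 1.71 (adjusted p = 0.00271). miR-1247-5p was called in opposite directions, 0.50 with SAHA and -0.80 with DMSO. So was miR-30a-3p, 0.26 with SAHA and -0.25 with DMSO. Leaving out any library ended the SAHA call of both, and without HGC-27 SAHA 2 the difference was smaller for miR-1247-5p (0.37, adjusted p = 0.19) and miR-30a-3p (0.13, adjusted p = 0.291).

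miR-19a-3p and miR-27a-5p were called lower in AGS with SAHA and not with DMSO. miR-19a-3p had 199.9, 198 and 225 CPM in AGS SAHA and 532, 466 and 434 CPM in HGC-27 SAHA (-1.20 ± 0.16), with -0.08 ± 0.16 under DMSO (interaction adjusted p = 0.0263). miR-27a-5p had 581, 533 and 656 CPM in AGS SAHA and 1208, 926 and 1149 CPM in HGC-27 SAHA (-0.89 ± 0.13), with 0.21 ± 0.13 under DMSO (interaction adjusted p = 0.0105). For miR-516a-5p the difference was larger with SAHA (2.09) than with DMSO (1.01, interaction adjusted p = 0.0112). For miR-135b-3p it was smaller with SAHA (-2.89) than with DMSO (-4.34, interaction adjusted p = 0.00827).

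Some families were called under 1 treatment while the interaction missed the threshold. miR-192-5p, known from gut and liver epithelium, had 4892, 4516 and 5653 CPM in AGS SAHA and 5580.1, 5656 and 5779 CPM in HGC-27 SAHA, and these overlapped (log2 fold change -0.18 ± 0.32, adjusted p = 0.695). With DMSO it had 2335, 6444 and 2699 CPM in AGS and 1734, 1268 and 1081 CPM in HGC-27 (1.49 ± 0.33, adjusted p = 0.00343). None of the 4 tested members of miR-192, miR-194 and miR-215 was called with SAHA by edgeR and 3 were higher with DMSO, while the interaction did not reach the threshold for miR-192-5p or miR-194-5p (adjusted p = 0.0948 and 0.0816). Without AGS DMSO 2, the highest of its group, miR-192-5p was at 0.95 with DMSO (adjusted p = 0.00254) and miR-194-5p at 1.03 (adjusted p = 0.00496), miR-194-3p was no longer called (adjusted p = 0.0803), and the interaction of miR-192-5p was called (-1.22, adjusted p = 0.0447). miR-221-3p and miR-222-3p, which repress the cell-cycle inhibitor CDKN1B, were slightly higher in AGS with SAHA (0.22 ± 0.08 and 0.26 ± 0.09), with -0.15 and -0.19 under DMSO. All 4 microRNAs of their hairpins were called with SAHA, and 1 without HGC-27 SAHA 2 (2 with RLE size factors). The calls of miR-221-3p and miR-222-3p held under plain library totals and under no other alternative (adjusted p = 0.498 and 0.417 without HGC-27 SAHA 2).

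A few microRNAs were listed in AGS SAHA libraries and in no HGC-27 SAHA library. miR-3667-3p, from an intron of C22orf34, had counts of 50, 86 and 45 in AGS SAHA and 0 in each HGC-27 SAHA library, and it was at least 23.2-fold higher in AGS against a floor of 3 counts per library. miR-3622a-5p had 30, 41 and 39 counts in AGS SAHA and 0 in each HGC-27 SAHA library, at least 14.1-fold. Both were present in AGS DMSO as well, with 53, 43 and 36 and 56, 50 and 25 counts. miR-526b-5p and miR-518c-3p of the chromosome 19 cluster, below the filter for testing, had 18, 8 and 88 and 14, 2 and 78 counts in AGS SAHA, most of them in AGS SAHA 3, and 0 in HGC-27 SAHA. No microRNA with a mean of 10 CPM or more in HGC-27 SAHA was listed at 0 in all AGS SAHA libraries. A blank was read as 0 and the smallest listed count was 2, so a 0 is no proof that reads were absent.

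Markers of other cell types were present in both lines, and their counts of calls stand beside 42.8% called among all 608. Fibroblast and smooth muscle microRNAs summed to 1605, 1481 and 2098 CPM in AGS SAHA and 803, 2479 and 1106 CPM in HGC-27 SAHA, with 1 of 8 tested called, miR-199b-5p, lower in AGS (-0.94 ± 0.16). Of the 8, 5 had a positive log2 fold change, among them the most abundant, miR-143-3p (0.99, not called). The median of the 8 was 0.12 with HGC-27 SAHA 2 and 1.89 without it. HGC-27 SAHA 2 had the highest sum of its line, and fewer cells of a type and less RNA per cell cannot be told apart in such bulk libraries. Blood and endothelial microRNAs summed to 2899, 2793 and 4096 CPM in AGS SAHA and 2347, 3255 and 2032 CPM in HGC-27 SAHA, most of it miR-126-3p, which was not called (0.40 ± 0.24), and 1 of 10, miR-486-5p of red blood cells, was higher in AGS (1.40 ± 0.37). The median of the 10 was -0.09 with HGC-27 SAHA 2 and 1.12 without it. Of the epithelial miR-200 family 1 of 6 was called. miR-200b-3p had 196, 231 and 268 CPM in AGS SAHA and 276, 289 and 333 CPM in HGC-27 SAHA (-0.37 ± 0.47, adjusted p = 0.556). miR-200c-3p, another repressor of ZEB1, was higher in AGS (0.76 ± 0.23), and the call was lost without HGC-27 SAHA 2 (adjusted p = 0.0887), without each of the other SAHA libraries but AGS SAHA 2, without HGC-27 DMSO 2 or 3, and with predicted entries fitted together. Muscle, liver, neuron and endocrine microRNAs summed to 19196, 18988 and 19621 CPM in AGS SAHA and 52563, 58192 and 57367 CPM in HGC-27 SAHA, most of it miR-7-5p, and of 15 tested miR-7-1-3p was called higher in AGS and miR-7-5p and miR-128-3p lower. The call of miR-7-1-3p was lost without HGC-27 SAHA 2 (0.25, adjusted p = 0.264) and without any other library, and that of miR-128-3p without AGS SAHA 1 or AGS SAHA 2, under plain library totals and with the 6 SAHA libraries alone. The part of other cell types in the line differences was not tested.

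The imprinted DLK1-DIO3 cluster on chromosome 14 showed how far 1 library reached. The 25 tested members summed to 346, 598 and 328 CPM in AGS SAHA and 136, 3618 and 193 CPM in HGC-27 SAHA, so that HGC-27 SAHA 2 lay above all other libraries and its replicates lay below AGS. miR-381-3p had 110.4, 150.4 and 174 CPM in AGS SAHA and 49.4, 1792 and 56.2 CPM in HGC-27 SAHA (log2 fold change -2.12 ± 1.11, adjusted p = 0.149). Without HGC-27 SAHA 2 it was higher in AGS (1.36, adjusted p = 0.0235), and so was miR-379-5p (1.71, adjusted p = 0.048). miR-411-5p and miR-127-3p had log2 fold changes of -1.38 and -1.11 with that library and 2.33 and 2.79 without it, and were called in neither. The median of the 25 was -1.28 with it and 1.20 without it. With it, miR-654-3p was called higher and miR-127-5p lower (1.56 and -3.39), and without it neither was. Both calls were also lost when any AGS SAHA library was left out.

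**Figure D5:**
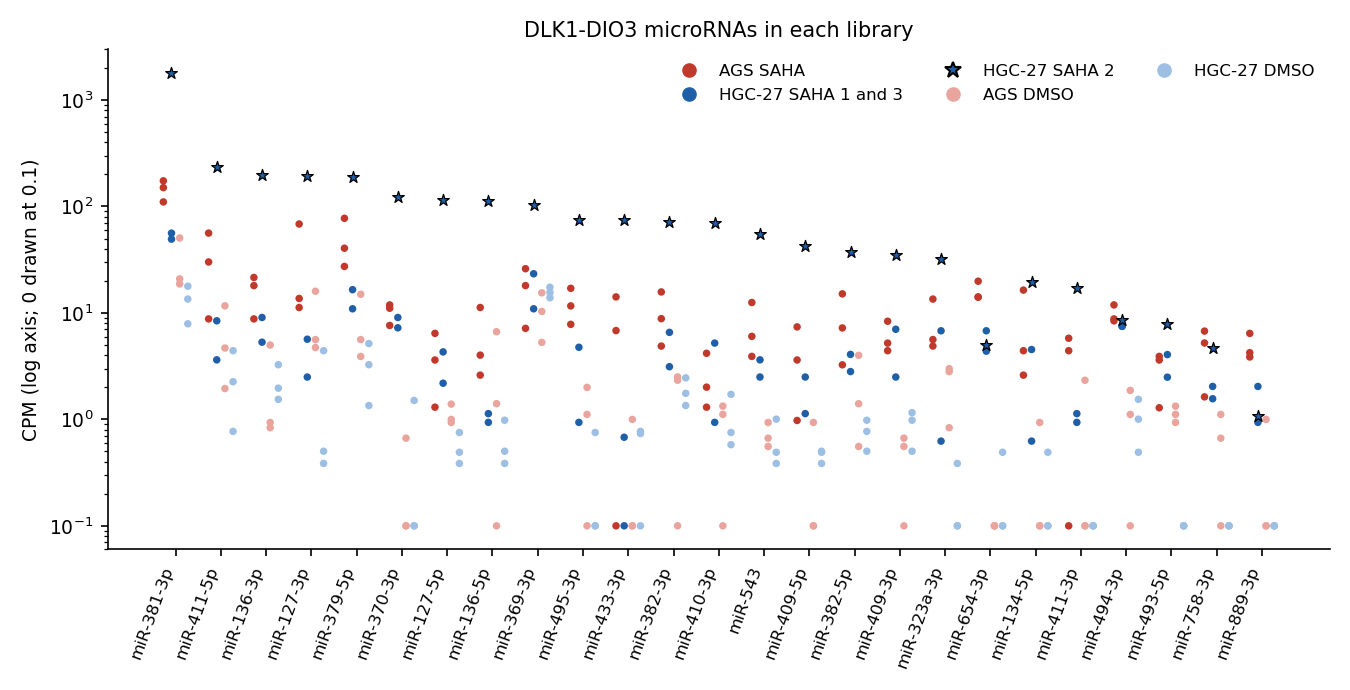
TMM-scaled CPM on a log axis for the 25 tested DLK1-DIO3 microRNAs in each of the 12 libraries, with 0 drawn at 0.1 and HGC-27 SAHA 2 marked by a star. For 21 of them the star lies above every other library, and for 10 HGC-27 SAHA 1 and 3 lie at or below every AGS SAHA library.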

How the data were processed

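Per the labels' protocols, total RNA was taken up in TRIzol and small RNA libraries were built with a NEBNext kit. The submitters' processing notes name cutadapt and Novoalign 2.07.11, while genome build, microRNA database and counting rule were not given in the sources used here. Raw counts were deposited by the authors per mature microRNA and hairpin. They also deposited a table of normalized values, which is not used here. The count table had 2909 entries, of which 860 were predicted and left out. The 2049 annotated entries gave 1906 names. For the 111 names with more than 1 hairpin the hairpin with the highest total stood for the name, and blanks were read as 0.

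Counts of all 12 libraries were fitted together in edgeR 4.0.16 (R 4.3.3) with TMM scaling, filterByExpr over the 4 groups and 1 coefficient per group, which left 608 microRNAs and 8 residual degrees of freedom. The quasi-likelihood test was applied to AGS SAHA against HGC-27 SAHA, the same with DMSO, and their difference (interaction), with calls at a Benjamini-Hochberg adjusted p under 0.05 over all 608. Total counts of the 6 SAHA libraries lay between 2756985 and 5357329. Intervals and floors (3 counts per library) cover counting error only, and the labels name no molecular identifiers, so PCR copies may be counted. Positions of hairpins are from GENCODE 29 and sequences from RefSeq, found for 607 and 540 of the 608. Alternatives were RLE factors, plain totals, predicted entries fitted together, other filters, DESeq2 1.42.0, the 6 libraries alone, a replicate block, summed hairpins and libraries left out. The microRNAs and lists were chosen with earlier results of these data known. Named microRNAs were, in each direction, the 10 calls that changed most among those with non-overlapping libraries and 50 CPM or more in either line, the 10 most abundant, the 5 most abundant calls of 2-fold or more in each direction, the largest interactions and opposite calls, from each list described its 4 most abundant members, and those listed in 1 line only. Any other was chosen after its values were seen. Lists are described by counts and medians with no set test.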

Additional observations from a re-analysis of the deposited data

Results flagged for a closer look

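For 11 microRNAs the difference between the lines was not the same with SAHA as with DMSO by edgeR's interaction test. The interaction is the log2 fold change of AGS over HGC-27 with SAHA minus that with DMSO. It was negative for miR-7-5p (-1.95), miR-19a-3p (-1.13), miR-27a-5p (-1.10), miR-195-3p (-4.11) and miR-216b-5p (-6.10). It was positive for miR-1247-3p (1.71), miR-1247-5p (1.30), miR-135b-3p (1.45), miR-516a-5p (1.07), miR-30a-3p (0.51) and miR-676-3p (1.85).

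Values that the report does not give are these. miR-195-3p had 4.01, 3.54 and 8.46 CPM in AGS SAHA and 7.81, 5.74 and 6.79 CPM in HGC-27 SAHA, and 15.3, 16.6 and 9.83 CPM in AGS DMSO and 0.491, 1.76 and 0.771 CPM in HGC-27 DMSO. miR-216b-5p, a pancreatic microRNA, had 14.5, 12.9 and 16.9 CPM in AGS SAHA and 4.69, 2.51 and 4.53 CPM in HGC-27 SAHA, and 9.19, 13.7 and 4.68 CPM in AGS DMSO, with nothing listed in HGC-27 DMSO, so that its fitted interaction depends on how zeros are treated. miR-676-3p had 14.5, 18.6 and 9.44 CPM in AGS SAHA and 38.4, 39.5 and 44.8 CPM in HGC-27 SAHA, and 1.11, 0.999 and 1.87 CPM in AGS DMSO and 12.3, 14.6 and 14.3 CPM in HGC-27 DMSO. It was lower in AGS under both treatments, by less with SAHA.

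Of the predicted entries, which the report does not use, 258 were tested together with the annotated ones. Between AGS SAHA and HGC-27 SAHA 113 were called (43.8%, beside 43.1% of the annotated microRNAs in that fit), 83 of them higher in AGS and 30 lower.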

How the results depend on the processing

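The count of calls between the lines with SAHA ranged from 230 to 267 over the alternatives and the count shared with DMSO from 171 to 200, against 260 and 189. Calls in opposite directions (2) numbered 3 with DESeq2 and plain totals, 1 with RLE factors, with predicted entries fitted together and with summed hairpins, and 0 with the 6 libraries alone, no filter, the stricter filter and without HGC-27 SAHA 2, HGC-27 DMSO 1 and AGS DMSO 2 together, and 0 to 1 with 1 library left out. Calls with DMSO and not with SAHA (80) numbered 46 without those 3 libraries and 48 to 106 with 1 library left out. Interaction calls (11) numbered 37 with DESeq2, 19 with predicted entries fitted together and 2 to 20 with 1 library left out. The replicate block gave 250 calls, 1 opposite pair and 6 interaction calls. Same-numbered libraries deviated together only in part, with pair correlations of -0.32 to 0.50 over all groups. Between AGS SAHA and HGC-27 SAHA they were -0.09, 0.50 and 0.27 for numbers 1, 2 and 3. Of the 6 SAHA libraries, 3 were closest to their own number in the other line.

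Among the microRNAs named by the rules above, no call turned sign. Outside them, miR-127-5p was called at -3.39 and was at 0.10, not called, without HGC-27 SAHA 2. Of named microRNAs that were not called, 5 turned sign and were called under an alternative. Without the 3 libraries miR-127-3p was 2.77, miR-34c-5p 2.87, miR-379-5p 1.69, miR-381-3p 1.34 and miR-411-5p 2.32. With 1 library left out miR-379-5p ranged from -1.12 to 1.71 and miR-381-3p from -2.69 to 1.36, positive without HGC-27 SAHA 2. The cause was not tested. Over the named microRNAs and all alternatives, 2771 values kept sign and call, 162 lost the call, 90 gained it, 7 turned sign and were called, and 66 (from 19 microRNAs) turned sign without a call. Of the 260 calls 178 were kept under every alternative. With 3 libraries a group, small differences of low microRNAs could not be shown at this depth.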
